A study of Oncorhynchus mykiss with 3 samples.

Results

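let-7 microRNAs (miRNAs) were followed in unfertilized eggs of rainbow trout (Oncorhynchus mykiss), in which 27 let-7 names were listed with 71 unique sequences, among 575 names and 1059 sequences of known miRNAs. The members were all listed names that begin with omy-let-7, on both arms of the hairpin. A name with the number 98, a let-7 relative in mammals, was also sought, and 0 were found. The eggs came from commercial trout broodstock. D1PO eggs, at 1 day after ovulation, are labelled with a survival rate of 91.8%, D7PO eggs, at 7 days, with 73.4%, and D14PO eggs, at 14 days, with less than 50%. The paper gives the same values as fertilization rates. Each age was sequenced as 1 small RNA library from RNA pooled over females, without replicates. Every sequence has a single deposited read number with no library named beside it. It was taken here as the total over the 3 libraries, which the sources do not state. Values of single egg ages were not analysed here, and no difference between ages is given.

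let-7 was first found in Caenorhabditis elegans as a regulator of developmental timing, and the family is conserved across bilaterian animals. A let-7 gene is transcribed as a hairpin that Drosha and Dicer cut to a short duplex, and the strand from its 5p arm usually enters the Argonaute protein. Bases 2 to 8 of that strand, the seed, pair with target mRNAs, among them those of LIN28, which in turn blocks let-7 processing, HMGA2 and RAS genes in mammals. In vertebrates the level of mature let-7 rises as cells differentiate.

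The eggs held 10 let-7 letters, a to j, each with a 22-nt 5p sequence that begins with the same 9 bases. These sequences are shown because the members differ by few bases, and the capitals mark the seed, bases 2 to 8.
let-7a: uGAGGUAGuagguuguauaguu
let-7b: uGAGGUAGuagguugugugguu
let-7c: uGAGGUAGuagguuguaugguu
let-7d: uGAGGUAGuugguuguaugguu
let-7e: uGAGGUAGuagauugaauaguu
let-7f: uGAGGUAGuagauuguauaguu
let-7g: uGAGGUAGuaguuuguauaguu
let-7h: uGAGGUAGuaaguuguguuguu
let-7i: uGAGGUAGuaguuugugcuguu
let-7j: uGAGGUAGuuguuuguacaguu
The letters differed from each other at 1 to 6 of 22 positions. Counted from the 5′ end, 15 positions carried the same base in all 10 letters, and the 7 that varied were positions 10, 11, 12, 16, 17, 18 and 19. For each letter the most abundant 22-nt 5p sequence with the seed at bases 2 to 8 was taken, so likeness at these bases was set by the choice. The 22-nt 5p sequence without the seed there, listed under let-7a, had 249 reads. Relative to let-7a, let-7f differed by G12A, let-7g by G12U and let-7c by A19G. let-7e differed from let-7a by G12A and U16A, and let-7i differed most, by G12U, A17G, U18C and A19U. By reads, position 12 split the family most evenly. The G there was carried by 5 letters, with 39.3% of the reads of the 22-nt sequences. At position 16, let-7e alone had A, and the other 9 letters held 67.1% of the reads.

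**Figure D1:**
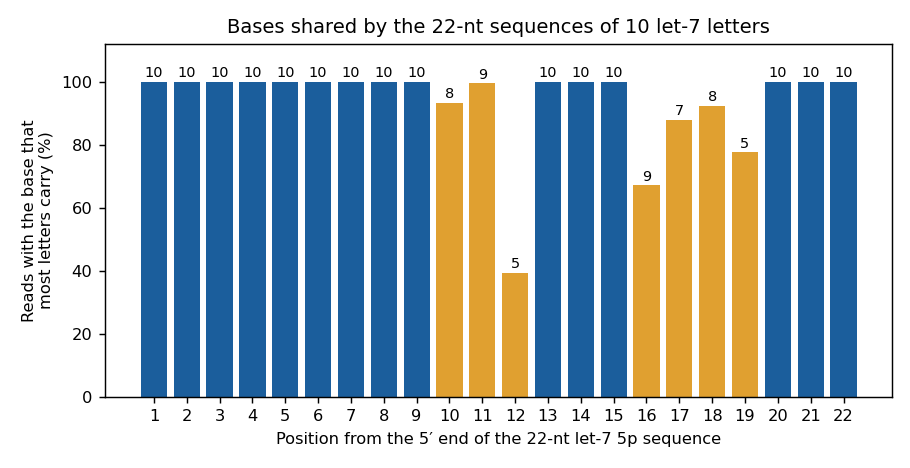
For each position of the 22-nt let-7 5p sequence, from the 5′ end, the bar gives the percent of the reads of the 10 sequences (each read counted once) that carry the base found in most letters, and the number above it gives how many of the 10 letters carry that base. Blue bars are positions alike in all 10 letters, and yellow bars are the 7 that vary, with the lowest bar at position 12 (39.3%). The seed at bases 2 to 8 was required when the sequences were chosen.

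The 2 most abundant let-7 names were let-7e-5p and let-7a-5p, which together with let-7g-5p and let-7f-5p held most of the family's reads. Reads are given here counted once, with the reads of longer sequences taken out of the shorter ones they contain, as described for the nested sequences next. omy-let-7e-5p, listed as 1 sequence, had 173224 reads (95% Poisson interval 172409 to 174042, counting error only), or 28.8% of all let-7 reads. omy-let-7a-5p had 170879 reads (170070 to 171691), or 28.4%. Their intervals did not overlap, although the 2 totals were close. omy-let-7g-5p had 65442 reads and omy-let-7f-5p 61083, again without overlap of their intervals (64942 to 65945 and 60600 to 61569). The following members were omy-let-7i-5p with 35386 reads, omy-let-7d-5p with 31318, omy-let-7b-5p with 25307 and omy-let-7c-5p with 24055. omy-let-7h-5p and omy-let-7j-5p were the least abundant letters on the 5p arm, with 5099 reads (7838 in the plain sum) and 4443 reads. The remaining 5p name, omy-let-7b-1-5p, had 32 reads of a 15-nt sequence without the seed.

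**Figure D2:**
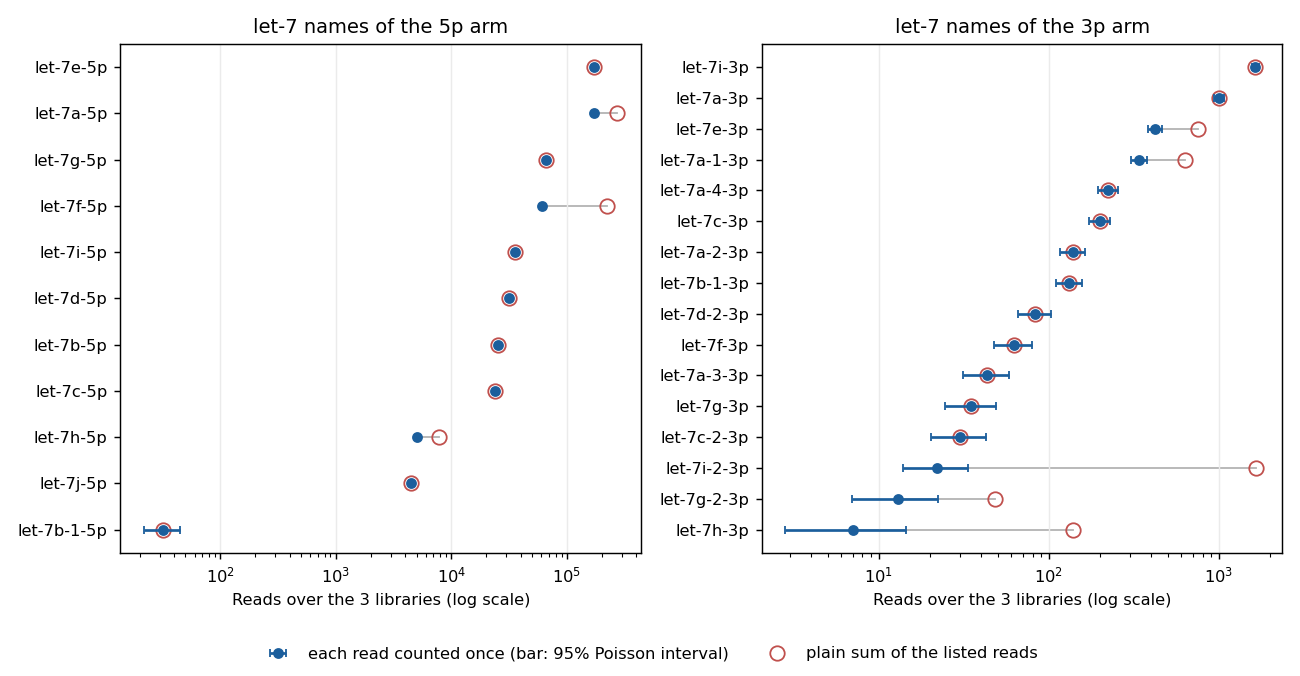
Reads of each let-7 name over the 3 libraries on a log axis, with the 11 names of the 5p arm on the left and the 16 of the 3p arm on the right. Filled points count each read once, with 95% Poisson intervals that cover counting error only, and open circles are the plain sums of the listed reads. The symbols part for let-7a-5p, let-7f-5p, let-7h-5p and for let-7e-3p, let-7a-1-3p, let-7i-2-3p, let-7g-2-3p and let-7h-3p.

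The order of the members depended on how nested sequences were read. Of the 34 pairs of let-7 sequences in which the shorter lies whole within the longer, the shorter was listed with at least as many reads in all 34. This also held for all 402 such pairs of other known miRNAs and for all 33 pairs of predicted miRNAs. Among let-7 sequences of the same name and unequal length that were not nested, the shorter was listed with at least as many reads in only 86 of 124 pairs (69.4%). The pattern was clearest in let-7f, shown here by 4 sequences with nearly equal numbers, capitals marking bases 2 to 8 of each. The shorter ones all lie within the 22-nt sequence. The one listed under let-7a-5p is not nested with the 18-nt and 21-nt sequences of let-7f.
let-7f 18 nt: uGAGGUAGuagauuguau
let-7f 21 nt: uGAGGUAGuagauuguauagu
let-7f 22 nt: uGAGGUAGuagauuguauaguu
listed as let-7a-5p, 21 nt: gAGGUAGUagauuguauaguu
The 18-nt sequence was listed with 74749 reads, the 21-nt sequence with 73289 and the 22-nt sequence with 71717. The 21-nt sequence that lacks the first U, listed under omy-let-7a-5p, had 72370 reads. A separate count for each would make the 18-nt fragment the most abundant form of let-7f.
In 1 case on the 3p arm the listed numbers of 2 longer sequences added up exactly to that of the shorter one. The 21-nt sequence of omy-let-7a-1-3p had 288 reads, and the 2 listed sequences that extend it by 1 base had 245 and 43 reads, which add up to the same number.
let-7a-1-3p 21 nt: cUAUACAAccuacugucuuuc
let-7a-1-3p 22 nt: cUAUACAAccuacugucuuucu
let-7a-3-3p 22 nt: cUAUACAAccuacugucuuucc
Further pairs within 5% of each other were 1498 and 1480 reads for the main let-7i 3p sequences of 21 and 22 nt, and 157 and 153 for their variant. omy-let-7e-3p had 339 and 332 reads at these lengths, let-7g 3p had 35 and 35, and omy-let-7h-5p had 2877 and 2739. Of 16 shorter sequences, 2 had 0 reads left once the longer ones were taken out, and the others kept a remainder. No source read here states how the authors counted nested reads. Over all known sequences the plain sum of the listed reads was 7684127, against 5719791 reads counted once. The reads mapped to miRBase in the paper, added over all libraries, are fewer than this plain sum and more than the reads counted once. If the listed numbers are totals drawn from those mapped reads, some reads were listed more than once. By which rule they were repeated was not tested. The counts used here assume that the reads of a longer sequence were listed again under every shorter one it contains. Starting from the longest, each sequence was reduced by the reads already left to the longer listed sequences that contain it.

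**Figure D3:**
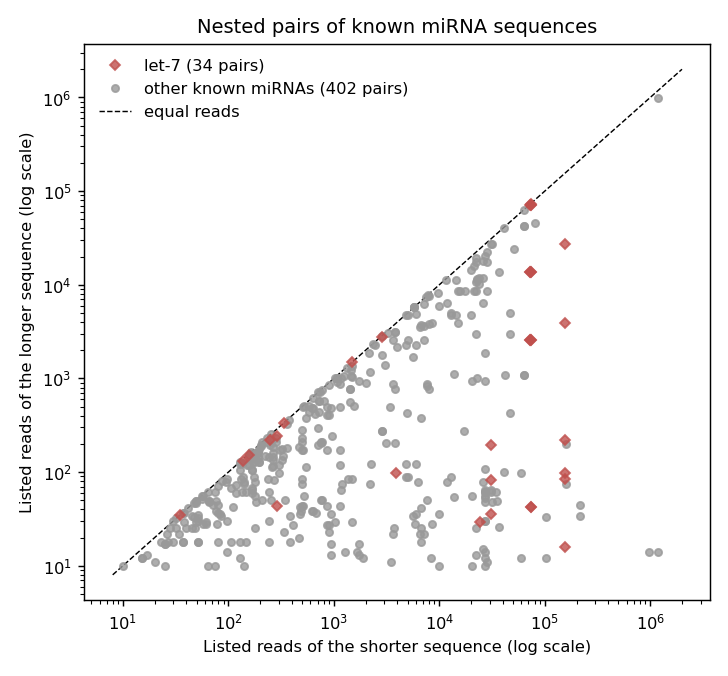
Listed reads of the longer against the shorter sequence of every nested pair of known miRNA sequences, both axes on a log scale. Red diamonds are the 34 let-7 pairs and grey circles the 402 pairs of other known miRNAs. No point lies above the dashed line of equal reads.

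Counted once, the let-7 family had 600649 reads, against 871185 in the plain sum of its listed numbers, so 68.9% of the listed reads remained. For all other known miRNAs 75.1% remained. let-7 made up 10.5% of the reads of known miRNAs counted once (95% Clopper-Pearson interval 10.48 to 10.53) and 11.3% in the plain sum, while its 27 names were 4.70% of the known names. The plain sum placed omy-let-7a-5p first with 274579 reads and omy-let-7f-5p second with 222418, above omy-let-7e-5p, whose 173224 reads were unaffected. The 22-nt sequence of let-7e ranked 7th of the 1059 known sequences by either count, and that of let-7a ranked 11th by reads counted once.

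The letter in the name and the letter of the closest sequence were not always the same. Of the sequences listed under omy-let-7a-5p, 3 lay closest to the 22-nt sequence of let-7f, with 14432 reads counted once.
let-7f 22 nt with C: uGAGGUAGuagauuguauaguuc
The largest of them was this sequence, with 13737 reads. Assigned to the closest sequence, let-7e had 173224 reads, let-7a 156418, let-7f 75515 and let-7g 51657. let-7f then stood above let-7g, while by name let-7g stood above let-7f. The let-7g value was lower than by name because 1 of its sequences, with 13785 reads, lay equally close to let-7g and let-7j and was assigned to neither.
listed as let-7g-5p: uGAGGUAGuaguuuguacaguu
Relative to the 22-nt sequence of let-7g it carries U18C, and both were listed at the same hairpin on chrUn_16. The second sequence of omy-let-7j-5p, with 37 reads, lay equally close to let-7e and let-7f, and its letter j comes from the name alone. A 26-nt sequence under omy-let-7a-5p, with 29 reads, begins with the whole 22-nt sequence of let-7c.

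Counted once, the listed 5′ ends of let-7 were nearly uniform, and the listed 3′ ends varied mainly in let-7a and let-7f. The seed GAGGUAG stood at bases 2 to 8 in 34 of 41 sequences of the 5p arm and in 99.8% of their reads (99.79 to 99.81). This depended on the counting. Of all let-7 reads, 99.1% had the seed there counted once, and 90.8% in the plain sum. With subtraction at the same 5′ end only it was 88.5%. The seed was shifted by 1 base in 6 sequences with 1148 reads together, or 0.193% of 5p reads. One of them is the let-7f sequence without its first U, which kept 653 reads of its listed 72370 after the longer sequences were subtracted. The others begin with an extra base.
let-7a with G: gUGAGGUAguagguuguauaguu
let-7d with C: cUGAGGUAguugguuguaugguu
These had 221 and 194 reads. No known or predicted sequence outside the family had the let-7 seed at bases 2 to 8, and 2 contained these 7 letters elsewhere, omy-miR-200a-3-5p with 53 reads and omy-miR-nov-34-3p with 238.

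A single C after base 22 was the most frequent listed 3′ addition, at nearly the same share in let-7a and let-7f.
let-7a 22 nt with C: uGAGGUAGuagguuguauaguuc
let-7a 22 nt with UU: uGAGGUAGuagguuguauaguuuu
let-7f 22 nt with A: uGAGGUAGuagauuguauaguua
The sequence with C held 27435 reads or 17.5% of let-7a (17.4 to 17.7) and 13737 reads or 18.2% of let-7f (17.9 to 18.5), with reads assigned to the closest letter. The 2 intervals lay next to each other without overlap. The addition of UU to let-7a had 3907 reads, of which 99 belonged to a listed sequence with 1 more U. The addition of A to let-7f had 2550 reads or 3.38% (3.25 to 3.51). It was listed without a position in the trout genome, while both sequences with C were placed in 1 hairpin on chrUn_15, plus strand, from 11419190 to 11419260. No 3′ addition was listed for let-7b, let-7e, let-7g, let-7h, let-7i or let-7j. The table holds no sequence under 10 reads, and a let-7a sequence with a single added U was not listed, so the list of ends is not complete. The 22-nt sequence of let-7a kept 123984 of its 155647 listed reads and that of let-7f 55430 of 71717. These remainders can hold reads with ends that were not listed. Reads whose longest listed form was 22 nt made up 91.1% of let-7 reads and 63.7% of the reads of other known miRNAs. Reads of 1 miRNA share libraries and ends, so these shares are given as a description without a test.

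Variants that differ by 1 or 2 bases were listed at the same hairpin position in 16 pairs of sequences of the same arm. The pairs are not all separate variants. G17A of let-7h and A9G of let-7i were each listed more than once through nested forms. Some other pairs differ only at or near the 3′ end, such as U22C in let-7a-3p. The most abundant variants belonged to let-7a, let-7g, let-7h and let-7i. In let-7g the sequence with U18C held 13785 of 65442 reads, or 21.1% (20.8 to 21.4). In let-7h, both 22-nt sequences were near equal, with 2739 reads for the main sequence and 2222 for the one with G17A, or 44.8% of the 2 (43.4 to 46.2).
let-7h 22 nt with G17A: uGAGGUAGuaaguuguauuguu
let-7a with U9G and UU: uGAGGUAGgagguuguauaguuuu
In let-7a, the sequence with both U9G and the added UU was listed with 342 reads beside 3907 of the same length without it, on chrUn_15, plus strand, from 18670636 to 18670706. U9G was also listed with an added AU at the same hairpin, with 275 reads. With an added G it had 107 reads and was placed on chrUn_27, minus strand, from 17620733 to 17620799. U9G falls just outside the seed. The let-7i 3p sequence with A9G had 153 reads against 1480 without it, or 9.37% of the 2. The chrUn_15 hairpin of the sequences with C held both letters, let-7a with 27435 reads and the one with G12A, the let-7f form, with 13737. Whether the variants match the genome beyond their listed positions was not tested.

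The 3p arm was rare. Names ending in 5p held 99.3% of let-7 reads (99.25 to 99.29), against 35.2% of the reads of other known miRNAs, among which omy-miR-143-3p is the most abundant. The 30 sequences of 16 3p names had from 11 to 1498 listed reads, with a median of 135, while the 41 sequences of the 5p arm had a median of 342. The most abundant 3p sequence of each of 8 letters is shown for the pattern at bases 2 to 8. let-7d had none that starts like a let-7 3p arm by the rule used here, which allowed only a small shift of the start. A sequence of omy-let-7d-2-3p holds the start of let-7c-3p further in and was left out by this limit.
let-7i-3p: cUGCGCAAacuacugccuugcu
let-7a-3p: cUAUACAAccuacugccuuccu
let-7e-3p: cUAUACAAucuacugucuuucu
let-7c-3p: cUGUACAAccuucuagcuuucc
let-7h-3p: cUAUACAAcuuacugccuuccu
let-7b-1-3p: cUAUACAAcuuacugccuuccuu
let-7g-3p: cUAUACAGucuacugucuuucu
let-7f-3p: cUAUACAAucuauugccuuccu
Unlike the 5p arm, the 3p arm had several seeds. UAUACAA was carried by 13 sequences of 8 names, with 1833 reads or 41.8% of the 3p reads, and UGCGCAA by the 4 sequences of let-7i alone, with 1655 reads or 37.8%. UGUACAA followed with 338 reads and UAUACAG with 258.
let-7i had the highest share of 3p reads, 35386 reads on the 5p arm and 1655 on the 3p arm, a ratio of 21.4 (20.4 to 22.5). In the plain sum the ratio was 10.8. For let-7a it was 97.9 (93.4 to 102.7), from 170879 and 1745 reads. Of these, 14432 reads of the 5p arm lay closest to let-7f, and 781 of the 3p arm were placed at the hairpin of let-7b-5p. By name let-7b had a ratio of 192 (162 to 230). For let-7e it was 412 (375 to 455), from 173224 and 420 reads, and 230 in the plain sum. For let-7g it was 1363 (1028 to 1849), from 65442 and 48 reads, and 788 in the plain sum. No 3p sequence was listed for let-7j. The ratios compare names, and their order was not settled for let-7a, let-7b and the letters with few 3p reads. The 3p sequence of let-7h is contained in that of let-7b-1 (139 and 132 reads), so its count was 7 counted once, and the ratio of let-7h was 728 counted once and 56.4 in the plain sum. The ratio of let-7f was 985 (768 to 1285), from 61083 and 62 reads, and 3587 in the plain sum. Of these 62 reads, 46 belonged to a sequence that shares most of its bases with the 5p arm. With sequences of the form of an arm only, a choice made after seeing the data, let-7f had 16 reads on the 3p arm and a ratio of 3818 (2351 to 6680), let-7g had 35 and a ratio of 1870 (1344 to 2685), and let-7d had 0. let-7i kept the lowest ratio in all 3 ways of counting.

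Some sequences under let-7 names did not have the form of either arm. By the rule used here they were 6 sequences with 185 reads in all, or 0.0308% of let-7 reads.
let-7d-2-3p 22 nt: gUUAACUGuacaaccuucuagc
let-7f-3p 19 nt: uGUAGUAGauuguauaguu
let-7d-2-3p 17 nt: uAAACAGUccggagaau
let-7g-2-3p 26 nt: uUAGGAUCacaccagaucugggagau
let-7b-1-5p 15 nt: uCAGUGUUguuauuu
let-7e-3p 18 nt: uGUAUGACcucuaugugu
The first, with 38 reads, shares 17 bases with the start of omy-let-7c-3p and begins 5 bases before it, at the same hairpin. It was counted here only because the rule allowed a 3p start to be shifted by fewer than 5 bases. The second, with 46 reads, is named as a 3p sequence but shares 18 of its 19 bases with the 5p sequence of let-7f. The remaining 4 had 45, 13, 32 and 11 reads, and their longest run shared with another let-7 sequence was 8 bases or fewer.

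The let-7 sequences were placed at 29 listed hairpin positions in the trout genome. Its build is not stated in the paper, labels or tables. After overlapping positions were joined there were 25 loci. Some rest on a single rare sequence, such as a 38-base position on chrUn that holds only the omy-let-7f-3p sequence with 46 reads. The file lists 1 position for each sequence, and of 26 nested pairs with a position for both sequences only 2 were placed at the same hairpin, so the reads of a locus do not measure its output. The main sequence of let-7a was placed on chrUn_24, plus strand, from 8493383 to 8493459, and that of let-7e on chrUn, minus strand, from 462238926 to 462238998. let-7f 22 nt was placed on chrUn_7, minus strand, from 10444546 to 10444635. By their names, sequences of both arms were placed at 13 loci, and at 11 of these the names of both arms had the same letters. The exceptions were the locus of let-7b-5p on chrUn, minus strand, from 161014884 to 161014973, where the 3p sequences carry the name let-7a-3p, and that of let-7c-5p on chrUn, plus strand, from 886565823 to 886565916, which also holds a sequence named let-7d-2-3p. For the let-7e locus, the agreement rests on the joining of 2 overlapping positions into 1 locus, from 462238926 to 462239048. Before joining, its position from 462238926 to 462238998 held let-7e-5p with let-7e-3p and also let-7a-3-3p. For the let-7d locus on chrUn_7, plus strand, from 12937195 to 12937287, the agreement rests on the 17-nt sequence of let-7d-2-3p, with 45 reads. That sequence has the form of neither arm.

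let-7 loci lay close to each other and to hairpins of miR-99 and miR-100, as let-7 genes do in many animals. Of the 25 loci, 12 had another let-7 locus within 1000 bases on the same strand, in 6 pairs whose starts were 234 to 448 bases apart. One pair joins the loci of omy-let-7g-5p and omy-let-7h-5p on chrUn_16, minus strand, at 30748001 to 30748089 and 30747594 to 30747689. Another joins the let-7f locus on chrUn_7 with a hairpin of omy-let-7e-3p at 10444938 to 10445034. In the pair on chrUn_15, the locus at 18670952 holds only the 15-nt sequence of omy-let-7b-1-5p without the seed, with 32 reads. In a pair on chrUn, the locus at 597852171 holds only a sequence of omy-let-7j-5p with 37 reads. In the list of partners, miR-99, miR-100 and miR-125, a hairpin lay within 1000 bases of 5 let-7 loci, each time before let-7 in the direction of transcription. omy-miR-100-5p, with 31335 listed reads, lay before the locus of let-7a and let-7f on chrUn, minus strand, with its hairpin from 594040934 to 594041027. omy-miR-100a-5p, with 27055 reads, lay 686 bases before the chrUn_15 hairpin of the sequences with C, start to start. omy-miR-99-5p was listed before let-7c-5p on chrUn, 411 bases apart with 4704 reads. It was also listed before let-7c-2-3p on chrUn_10, 378 bases apart with 20126 and 14395 reads for 2 sequences. These partner reads are listed numbers and were not counted once here. Pairs with 31335 and 27055, 20126 and 14395, and 14395 and 4704 listed reads were among the nested pairs of other known miRNAs. Under the counting rule used here such pairs share reads, so these numbers do not measure separate output of the partner hairpins. Before the main let-7a hairpin on chrUn_24, the 3p sequences omy-miR-100a-3p and omy-mir-99-1-3p were listed. No miR-125 hairpin lay within 1000 bases of let-7. Within 10000 bases there was 1 more locus, that of let-7d-5p on chrUn_18, with omy-mir-125a-3p and omy-miR-125b-2-3p 8374 bases after it.

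**Figure D4:**
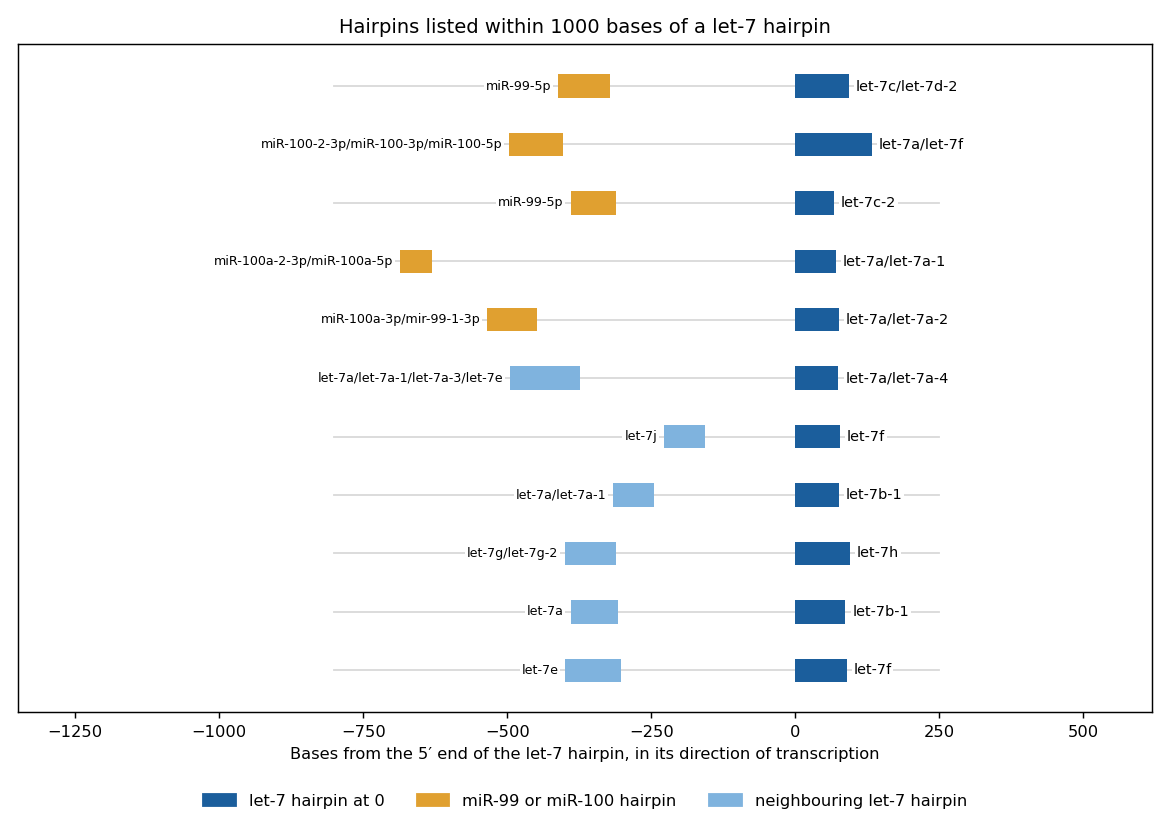
Hairpins listed within 1000 bases of a let-7 hairpin, 1 row for each, in bases from the 5′ end of the let-7 hairpin drawn at 0 (dark blue) and in its direction of transcription. Yellow boxes are miR-99 or miR-100 hairpins at 5 loci, light blue boxes are let-7 hairpins in 6 pairs, where the second of each pair is drawn at 0, and labels are the listed names. All yellow boxes lie before let-7.

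Most let-7 reads came from sequences with a genome position. Of 71 let-7 sequences 8 had none, or 11.3%, and these held 0.467% of the reads. Of 988 other known sequences it was 22.5%, with 1.96% of the reads. The usual miRNA size of 20 to 24 nt was found in 60 of 71 let-7 sequences (84.5%) and in 75.3% of the other known sequences. Of the 71, 36 were in a nested pair, so sequences are not independent and no interval or test is given. The listed reads of a let-7 sequence ranged from 11 to 173224 with a median of 157, against a median of 134.5 for other known sequences, so the high total of the family rested on few sequences. The 3 most abundant held 58.7% of its reads counted once.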

How the data were processed

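Small RNA of trout eggs at 3 ages was sequenced by the authors on an Illumina GAIIx, 1 library for each age. The deposited values are counts, whole numbers of reads for each unique sequence. By the paper's methods, the authors used ACGT101-miR to drop sequences of low quality, fewer than 10 copies or a length outside 15 to 26 nt, and matched what remained to miRBase. New miRNAs were predicted from genomic hairpins. The depth of each library is given by the paper but not with the deposited reads, and precision follows from the reads of each sequence. The paper reports fewer reads mapped to miRBase for D14PO than for D1PO, so the ages need not weigh equally in a total.

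Here a sequence's reads counted once are its listed reads minus the reads counted once of all longer listed sequences that contain it. This gave a negative remainder for 2 of 1059 known sequences, none of them let-7, and these stayed in the total of known reads. Alternatives were the plain sum, subtraction at the same 5′ end only, the most abundant sequence of each name, a genome position, 20 to 24 nt, and 100 or more reads. Reads shared by sequences extended at opposite ends can be subtracted more than once from a single sequence, but not from a total. Poisson and Clopper-Pearson intervals at 95% cover counting error only and hold only if the numbers are counts of reads. PCR reads without molecular identifiers are not independent molecules. No test was made. A sequence was assigned to the letter whose 22-nt sequence it matched with the fewest mismatches, starts shifted by up to 2 bases. Every let-7 name was accounted for. Named with values were the main 5p sequences, let-7a and let-7f sequences with 1000 or more reads, the main 3p sequence of each letter, nested pairs within 5% and sequences without the form of either arm. The members and lists were chosen with earlier results of these data known. The counting was run on simulated data listed by the same assumed rule, with every form listed and a shared 5′ start for each miRNA. Recovery of the totals was therefore built in. It checks the arithmetic and cannot show that the deposited numbers follow this rule. Python 3.11.15, NumPy 2.4.6, SciPy 1.17.1 and matplotlib 3.10.9 were used.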

Additional observations from a re-analysis of the deposited data

How the results depend on the processing

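Each value rests on reads taken as pooled over 3 libraries, so the intervals say nothing of differences between females or ages. Values were called moved where they left the 95% interval of the main value, which is narrow at this depth. The plain sum of the listed reads gave a let-7 share of known reads of 11.3%, a 5p share of 99.2% and a share with the seed at bases 2 to 8 of 90.8%, against 10.5%, 99.3% and 99.1%. Subtracting only longer sequences with the same 5′ end gave 11.4%, 99.3% and 88.5%. Both settings count the let-7f sequence without its first U in full, which lowers the seed share. With the most abundant sequence of each name only, the let-7 share was 10.4% and the 5p share 99.1%. The let-7 share was 10.6% with genome positions only and 10.7% at 20 to 24 nt. With at least 100 reads, the 5p share was 99.3% and the seed share 99.2%. The remaining 6 of these 18 alternatives stayed within the interval. Of 38 alternatives for single letters and hairpins, 8 of them added after seeing the data, 14 moved, all but 1 of which stand beside their values in the report. The exception was the 5p to 3p ratio of let-7a, which was 135 in the plain sum against 97.9. No paired analysis was possible because there was a single library for each age and the deposited reads are not divided by age.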
